A study of Mus musculus with 12 samples.

Results

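Heat shock proteins and chaperones, the proteins that fold other proteins and keep them from clumping, were followed across normal and tumor-bearing mouse ovaries. The members were all genes with an array symbol of the HSP70, HSP110, HSP90, small heat shock protein, mitochondrial chaperonin, DNAJA, DNAJB, DNAJC, CCT and protein disulfide isomerase (PDI) series, together with Calr and Canx. They were chosen by name and not by their values. There were 71 such genes among the 10949 genes measured, each read from the brightest of its probe sets over the 12 arrays. The heat shock factor genes Hsf1 and Hsf2, and the chaperone genes Hspa1a and Hsp90ab1, were not analysed here.

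Expression was measured on 1-colour arrays in 12 ovary samples from female mice aged 23 weeks, killed at diestrus, the quiet phase of the estrous cycle. The 6 control samples came from Pgrcre/+ mice, which had the Cre recombinase gene placed at the progesterone receptor locus Pgr and no tumor. The other 6 samples came from Pgrcre/+PgrBLsL/+ mice and were labelled as tumor progression stage I in 3 and stage II in 3. The labels call the 12 samples bioreplicates and do not say whether ovaries were pooled. All groups carried Pgrcre/+, were fed normal chow and were housed with female littermates. Cre from this locus is made in cells that use the Pgr promoter, while the arrays read the whole ovary. The labels do not describe PgrBLsL further, and the study's title names constitutive expression of the progesterone receptor. Since no ovary carried the allele without a tumor, allele and tumor cannot be told apart in a comparison with controls.

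Chaperones of the HSP70 type hold unfolded stretches of a protein in cycles of ATP use. J-domain proteins (the DNAJ series) bring them their clients and start the cycle, and HSP110 proteins reset it. HSP90 finishes the folding of signalling proteins such as the steroid hormone receptors, the progesterone receptor included, the ring-shaped CCT folds actin and tubulin, and small heat shock proteins hold unfolding proteins without ATP. In the endoplasmic reticulum (ER), where secreted and membrane proteins are made, the HSP70 Hspa5, the HSP90 Hsp90b1, the lectins Calr and Canx and the PDI family do this work.

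Cells raise these genes by separate programs. Heat shock factors bind inverted repeats of the unit GAA in front of cytosolic chaperone genes, and ER stress acts through an element made of CCAAT and CCACG in front of ER chaperone genes. The promoters below show these letters for the members on which the results turn. They run 5′ to 3′ on the gene's strand and come from the RefSeq promoter table of build GRCm38.p6. Each of the first 5 is the 150 bases before a listed start site, with the paired units GAANNTTC and TTCNNGAA in capitals. Hspb1, Hspa1b and Hsph1 hold such a pair in this stretch, and Hspa2 and Pdia4 do not.
Hspb1 (chr5:135887769-135887918, plus strand): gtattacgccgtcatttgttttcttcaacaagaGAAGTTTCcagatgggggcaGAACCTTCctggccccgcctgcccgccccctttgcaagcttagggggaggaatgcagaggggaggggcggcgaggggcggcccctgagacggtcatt
Hspa1b (chr17:34959239-34959388, minus strand): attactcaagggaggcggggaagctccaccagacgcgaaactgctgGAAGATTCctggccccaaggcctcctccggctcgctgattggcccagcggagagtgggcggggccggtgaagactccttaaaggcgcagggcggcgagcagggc
Hsph1 (chr5:149636337-149636486, minus strand): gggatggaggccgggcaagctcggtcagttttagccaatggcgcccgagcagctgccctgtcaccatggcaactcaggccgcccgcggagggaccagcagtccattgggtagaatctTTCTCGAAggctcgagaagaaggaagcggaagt
Hspa2 (chr12:76404220-76404369, plus strand): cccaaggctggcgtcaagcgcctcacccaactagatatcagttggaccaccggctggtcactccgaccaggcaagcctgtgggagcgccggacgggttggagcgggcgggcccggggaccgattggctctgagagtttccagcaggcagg
Pdia4 (chr6:47813513-47813662, minus strand): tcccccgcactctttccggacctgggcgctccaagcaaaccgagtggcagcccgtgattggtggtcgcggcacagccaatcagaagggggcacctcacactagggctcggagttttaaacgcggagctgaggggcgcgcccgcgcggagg
Each of the next 6 is a stretch of 59 bases around the ER stress element, CCAAT and CCACG with 9 bases between them on either strand, with the element in capitals. These were all the members with an exact match to it.
Hspa5 (chr2:34772005-34772063, plus strand): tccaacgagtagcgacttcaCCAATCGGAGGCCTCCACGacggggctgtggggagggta
Hsp90b1 (chr10:86705618-86705676, minus strand): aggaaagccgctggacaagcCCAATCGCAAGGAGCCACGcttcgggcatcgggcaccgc
Calr (chr8:84847055-84847113, minus strand): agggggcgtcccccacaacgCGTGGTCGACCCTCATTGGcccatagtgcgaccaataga
Canx (chr11:50325780-50325838, minus strand): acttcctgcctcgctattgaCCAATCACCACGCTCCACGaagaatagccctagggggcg
Dnajc3 (chr14:118937807-118937865, plus strand): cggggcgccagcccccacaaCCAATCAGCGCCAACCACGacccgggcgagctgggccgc
Pdia6 (chr12:17266471-17266529, plus strand): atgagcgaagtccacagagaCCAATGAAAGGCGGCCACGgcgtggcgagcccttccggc
The searched window ran from 250 bases before to 50 bases after a start site, and 59 of the 71 members matched the table. The unit GAANNTTC was found in 10 of the 59 members (16.9%) and in 9.04% of all 27025 genes with a promoter there. The unit TTCNNGAA was found in 8 members (13.6%) against 9.60% of all genes. Both units read the same on either strand, can overlap each other, and 1 or the other was found in 14 members (23.7%) against 17.0% of all genes. Hspd1 and Hspe1, on opposite strands of chromosome 1, gave the same matches in mirror order and at the same spacing. The same stretch may thus be counted for both genes. The ER stress element was found in 6 members (10.2%) against 37 of all genes (0.137%). Since the element is described above as one of ER chaperone genes, its higher share among members is no independent result. A match describes letters in a window and shows no binding.

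The deposited values are log2 expression, so a difference of 1 is a doubling. The chaperones as a whole lay where other genes lay, and a few of them were far from control in stage II. With limma, a linear model fitted to all genes, a gene was called where its Benjamini-Hochberg adjusted p over all 10949 genes was under 0.05. In stage II against control 12 of the 71 members were called (16.9%), against 21.0% of all genes. Of these, 5 rose (7.04%, against 9.81% of all genes) and 7 fell (9.86%, against 11.2%). The median member difference was -0.02, against -0.01 over all genes, and the median size of a difference without its sign was 0.12 for members and 0.13 for all genes. By at least 1.5-fold, 3 of the 71 members differed, namely Hspb1, Hspa2 and Pdia4. The share of all genes at that size was not counted. The chaperones were thus called no more often than other genes, and the account below is about the named members. In bulk tissue, fewer cells of a type and less RNA per cell cannot be told apart.

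In stage I against control 0 of the 71 members passed the threshold in limma. The background was low here too, with 0.192% of all genes called in either direction, 0.192% higher and 0.0% lower. At an unadjusted limma p under 0.05 there were 6 members, of which 5 were higher. The share of all genes at that unadjusted threshold was not counted, so these 6 have no background beside them. In stage II against stage I 8 members were called (11.3%), against 12.5% of all genes, with 3 higher (4.23%, against 6.54%) and 5 lower (7.04%, against 5.97%). The 2 stages share their 6 controls, so the differences from control are given side by side and are not independent of each other.

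The checks of the arrays that touch these results were as follows. Pgr itself had log2 levels of 3.74 to 4.60 in controls, of 9.05 to 9.28 in stage I and of 9.78 to 10.09 in stage II. On the first principal component, which held 55.2% of the variance, controls lay between -17.6 and -15.1 and stage II between 27.6 and 42.2, while stage I replicate 1 lay at 9.94 and replicates 2 and 3 at -4.56 and -6.52. Stage I replicate 1 therefore lay nearest to stage II. Cell type markers moved as well. In stage II 8 of 9 measured oocyte markers, 6 of 6 granulosa cell markers, 4 of 5 theca markers and 7 of 8 smooth muscle markers fell, while 5 of 10 macrophage and leukocyte markers and 2 of 7 epithelial markers rose. The mean level of the granulosa list was 11.08 to 11.76 in controls, 11.35 to 11.77 in stage I and 9.81 to 10.97 in stage II. That of the epithelial list was 7.18 to 8.21, 7.94 to 8.29 and 8.24 to 8.65, and that of the macrophage list 7.73 to 7.91, 7.85 to 8.48 and 8.20 to 8.46. The epithelial markers did not move together in stage II: Krt8 (3.59) and Cldn3 (1.42) rose, 4 of the 7 lay below 0, among them Epcam (-0.67), and the list median was -0.04. Control replicate 5, stage I replicate 2 and stage II replicate 2 had the highest Ovgp1, an oviduct gene, at 12.70, 11.77 and 11.58. The part of these shifts in the chaperone results below was not tested.

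**Figure D1:**
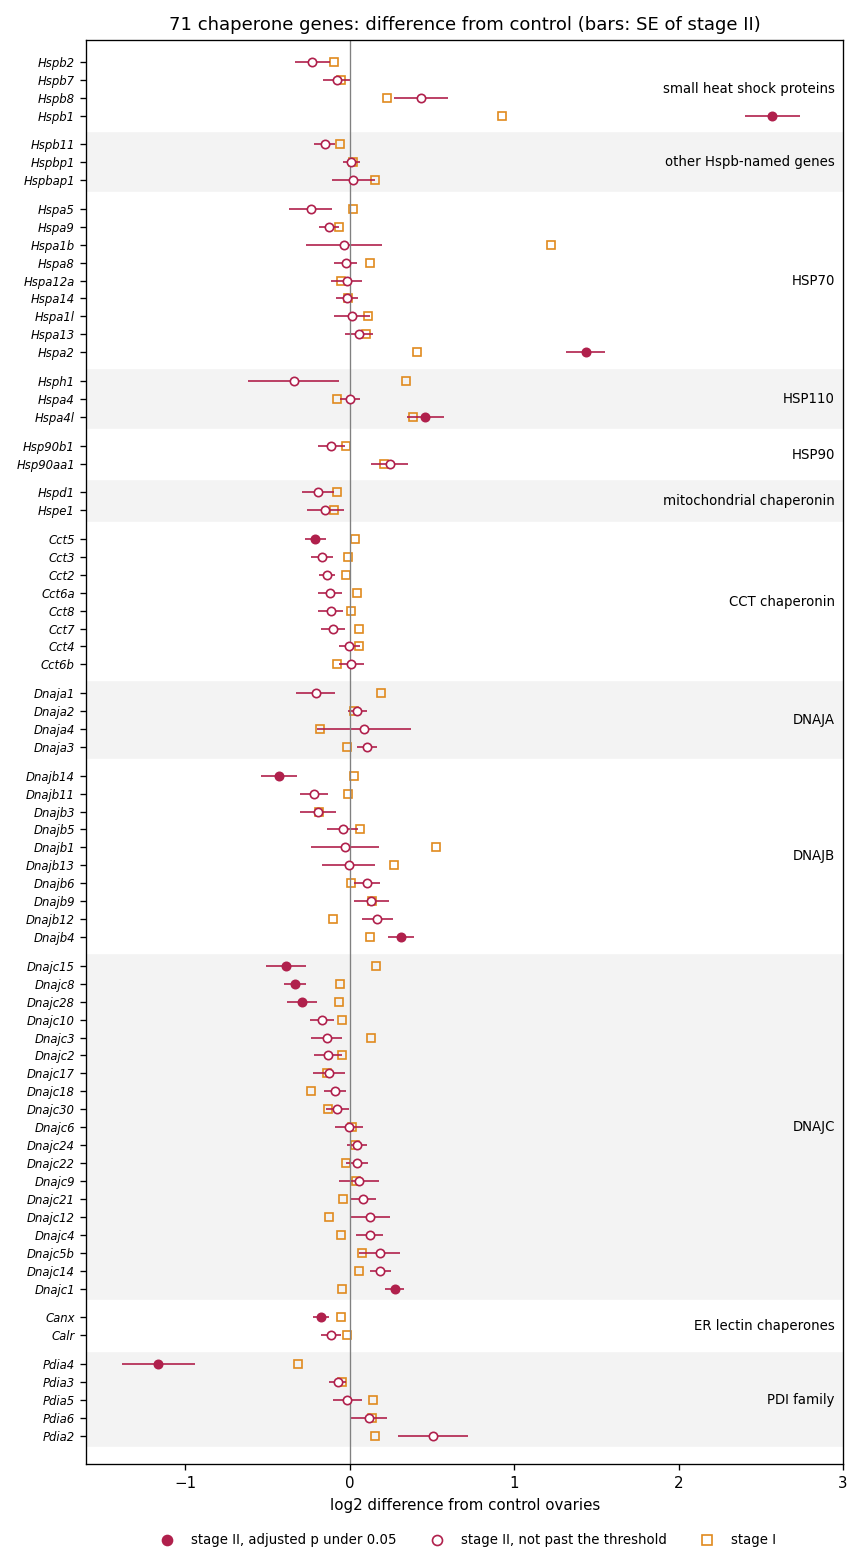
Difference of each of the 71 chaperone genes from the mean of 6 control arrays, on the log2 scale, grouped by family. Circles are stage II with the SE of the model, filled where the adjusted p was under 0.05, and squares are stage I. Most members lie near 0, Hspb1 (2.57) and Hspa2 (1.43) lie far to the right and Pdia4 (-1.16) to the left, and among stage I values Hspa1b (1.22) stands out.

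Among the small heat shock proteins, Hspb1 (HSP27), an actin-associated holder of unfolding proteins, rose the most of all members. Its log2 level lay at 9.97 to 10.65 in the 6 controls (median 10.52), at 11.63, 11.20 and 11.17 in the stage I arrays, and at 12.86, 12.79 and 13.29 in the stage II arrays. The 3 groups did not overlap, and stage I lay between control and stage II. Stage II exceeded control by 2.57 ± 0.17 (SE), a 5.94-fold difference with an adjusted p of 1.2e-06 in limma, and stage I by 1.64 ± 0.19 (adjusted p 0.00042). Both calls held under every alternative that was run. Stage I exceeded control by 0.93 ± 0.17, and this difference missed the threshold in limma (adjusted p 0.059). It passed without stage II replicate 3 (adjusted p 0.047), an array that enters that contrast only through the shared estimate of the spread. A second Hspb1 probe set differed from control by 2.73 in stage II and by 0.94 in stage I. The other 3 measured small heat shock proteins were not called. Hspb8, a partner of the co-chaperone Bag3, differed by 0.43 ± 0.16 (limma adjusted p 0.079), Hspb7 by -0.08 and Hspb2 by -0.23. Hspb11, Hspbp1 and Hspbap1, which share the name but are not small heat shock proteins, lay between -0.15 and 0.02.

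In the HSP70 family Hspa2, a form best known from male germ cells, was the member called in stage II against control. It lay at 7.62 to 8.14 in controls (median 8.03), at 8.57, 8.44 and 8.16 in stage I, and at 9.28, 9.54 and 9.42 in stage II. All stage II arrays lay above all others, and the stage I arrays began just above the highest control. The difference of stage II from control was 1.43 ± 0.12, or 2.70-fold (limma adjusted p 5.7e-06), and from stage I it was 1.02 ± 0.14 (adjusted p 0.00086). Both held under every alternative that was run. Stage I differed from control by 0.41 ± 0.12, which was not called (limma adjusted p 0.42). The constitutive cytosolic Hspa8 differed by -0.02 in stage II, the mitochondrial Hspa9 by -0.13 and the ER form Hspa5 (BiP) by -0.24 ± 0.13, none of them called. The other 4 uncalled members besides Hspa1b lay between -0.02 and 0.06.

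Hspa1b, the stress-inducible HSP70, was the member with the largest stage I value. Controls lay at 9.50 to 9.97 (median 9.73), the stage I arrays at 10.20, 10.90 and 11.68, and the stage II arrays at 9.65, 9.61 and 9.74. Every stage I array lay above every control and stage II array, while stage II lay within the controls. The stage I arrays were also far apart from one another, with an SD of 0.74 against 0.17 in controls. Stage I exceeded control by 1.22 ± 0.23, which missed the threshold in limma (adjusted p 0.072) and passed it without stage I replicate 1 (1.59, adjusted p 0.0012). Stage II lay below stage I by 2.40-fold (log2 difference -1.26 ± 0.27, limma adjusted p 0.012). That call ended in a fit of these 2 groups alone (adjusted p 0.079) and when the 3 arrays of highest Ovgp1 were dropped (adjusted p 0.084). A second Hspa1b probe set gave 9.97, 10.66 and 11.50 in stage I against 9.12 to 9.69 in controls. The main probe set can also match other transcripts by its design, and Hspa1a is a near-identical gene, so signal from either copy may be included.

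Several other members were also high in stage I replicates 2 and 3, and some of those named here were chosen for it after their values were seen. Dnajb1 (HSP40), the J-domain partner of inducible HSP70, lay at 10.01 to 10.56 in controls (median 10.04), at 10.01, 10.85 and 11.11 in stage I and at 10.26, 10.17 and 9.88 in stage II. Hsph1 (HSP110) lay at 10.12 to 10.98 in controls (median 10.77), at 10.08, 11.55 and 11.49 in stage I and at 10.39, 10.30 and 10.37 in stage II. In both genes stage I replicates 2 and 3 exceeded every other array, while stage I replicate 1 lay at or below the lowest control. Hsp90aa1, the inducible HSP90, gave 12.46, 12.85 and 12.98 in stage I against 12.29 to 12.67 in controls, with replicates 2 and 3 above every control. Hspa8 gave 13.14, 13.34 and 13.47 against 13.11 to 13.27, and Dnaja1, chosen after its values were seen, gave 11.69, 12.22 and 12.28 against 11.76 to 11.97. Of the dimmer Hspa8 probe sets, 1 gave 8.49, 9.18 and 9.89 against 7.96 to 8.78, a difference of 0.68. The other gave 11.71, 11.87 and 12.15 against 11.69 to 11.95, with replicate 3 alone above every control. None of these 5 genes was called in any comparison with limma: for stage I against control the differences were 0.53 (Dnajb1, adjusted p 0.68), 0.34 (Hsph1, 0.94), 0.21 (Hsp90aa1, 0.86), 0.12 (Hspa8, 0.89) and 0.19 (Dnaja1, 0.89). Among co-chaperones, 3 genes picked after their values were seen had the same 2 arrays highest: Stip1, the adaptor of HSP70 and HSP90, at 9.44, 9.92 and 9.94 against 9.33 to 9.74 in controls, Ahsa1, an activator of HSP90, at 10.52, 10.82 and 10.84 against 10.45 to 10.62, and Bag3 at 9.52, 9.85 and 10.00 against 9.59 to 9.84. Not all heat-inducible members did this. The mitochondrial pair Hspd1 and Hspe1, both with a paired heat shock unit in the promoter window, gave 12.59, 12.83 and 12.94 in stage I against 12.65 to 13.02 in controls, and 10.69, 10.76 and 10.86 against 10.59 to 11.24. In both, stage I replicates 2 and 3 lay within the controls. The pattern was not that of Hspb1 or Hspa2, both highest among stage I arrays in replicate 1. It rests on 2 arrays, and its cause was not tested.

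**Figure D2:**
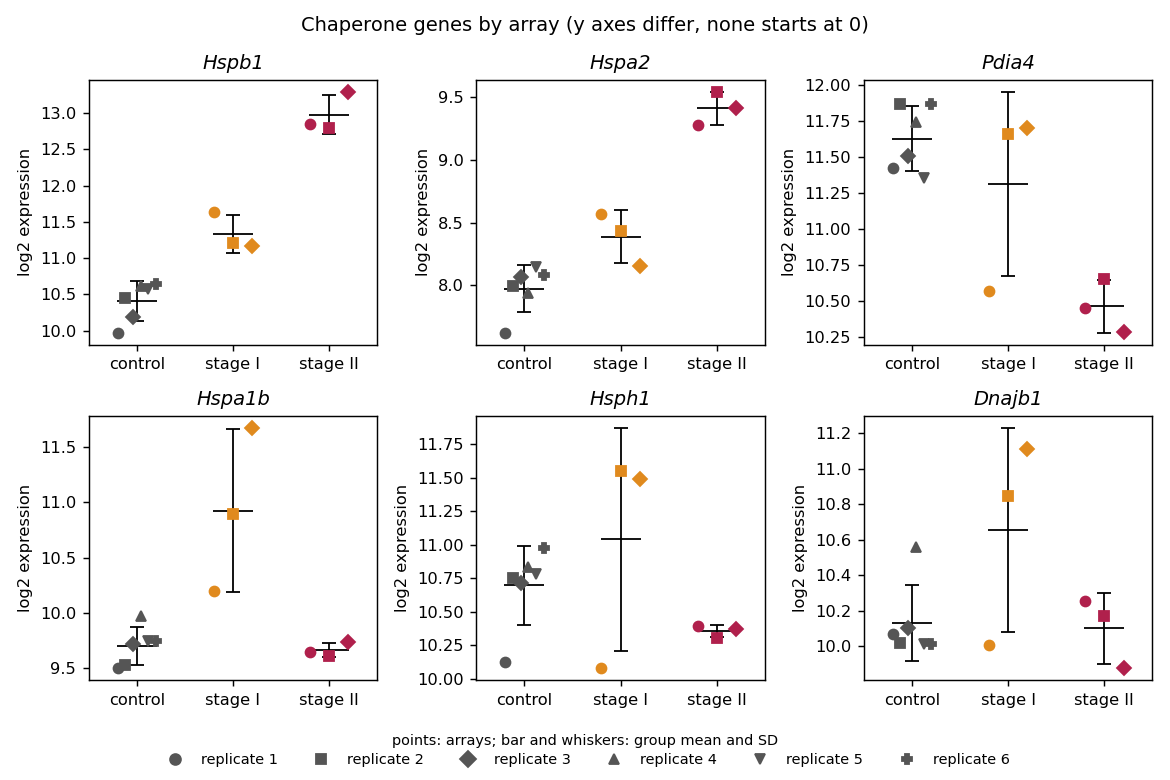
Log2 expression of 6 chaperone genes in every array, with group mean and SD, in 6 control, 3 stage I and 3 stage II samples (y axes differ and do not start at 0). Hspb1 and Hspa2 are highest in stage II, Pdia4 is low in stage II and in stage I replicate 1 (10.57), and Hspa1b, Hsph1 and Dnajb1 are highest in stage I replicates 2 and 3.

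The HSP110 and HSP90 families held 3 and 2 measured genes. Hspa4l, an HSP110 protein that resets HSP70, rose in stage II. It lay at 8.53 to 9.04 in controls (median 8.67), at 8.91, 9.30 and 9.11 in stage I and at 9.19, 9.27 and 9.07 in stage II. Stage II lay above all controls, and the stages overlapped. The difference from control was 0.46 ± 0.11 in stage II (limma adjusted p 0.013) and 0.39 ± 0.11 in stage I (adjusted p 0.43), and the former call ended when the 3 arrays of highest Ovgp1 were dropped (adjusted p 0.057). Hspa4 differed by 0.00 in stage II. Hsp90aa1 lay at 12.77, 12.73 and 12.88 in stage II, above all 6 controls, with a difference of 0.24 ± 0.11 that was not called (limma adjusted p 0.15). Hsp90b1 (GRP94), the HSP90 of the ER, differed by -0.11 ± 0.08.

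The J-domain proteins, which pass clients to HSP70, made up 33 of the members, and 6 of them were called in stage II against control (18.2%, against 21.0% of all genes). Dnajb4, a cytosolic J-domain protein, rose from 8.53 to 8.86 in controls (median 8.73) to 9.14, 8.94 and 9.01, a difference of 0.31 ± 0.08 (limma adjusted p 0.013). This call ended without stage II replicate 1 (adjusted p 0.067). Dnajc1, which sits in the ER membrane, rose from 8.97 to 9.18 in controls (median 9.04) to 9.39, 9.27 and 9.31, by 0.27 ± 0.06 (limma adjusted p 0.0071), and exceeded stage I by 0.32 ± 0.07 (adjusted p 0.012). Both genes lay above all controls in every stage II array, by less than 1.5-fold. The Dnajc1 value moved to 0.05 (adjusted p 0.64) when its 3 probe sets were averaged, since the dimmest of them differed by -0.38 while the other gave 0.25. The Dnajc1 call between stages was lost in 5 of 22 alternatives: averaged probe sets (adjusted p 0.087), the compared groups only (0.063), the replicate number as a block (0.055), and without the 3 arrays of highest Ovgp1 (0.079) or stage I replicate 2 (0.053).

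The J-domain genes that fell were Dnajb14, another ER membrane protein, Dnajc8, a nuclear protein linked to splicing, Dnajc15, of the inner mitochondrial membrane, and Dnajc28. Dnajb14 lay at 9.30 to 9.55 in controls (median 9.47), at 9.57, 9.49 and 9.39 in stage I and at 9.14, 9.28 and 8.67 in stage II. It fell by 0.43 ± 0.11 on the log2 scale (limma adjusted p 0.018), with stage II replicate 3 the lowest array, and without that array the difference was -0.25 (adjusted p 0.074). Dnajc8 lay at 9.91 to 10.05 in controls (median 9.95), at 9.92, 9.81 and 9.97 in stage I and at 9.70, 9.72 and 9.47 in stage II, a difference of -0.33 ± 0.07 (limma adjusted p 0.0046). In both genes stage II lay below every other array. Dnajc15 differed by -0.39 ± 0.12 (limma adjusted p 0.039) and Dnajc28 by -0.29 ± 0.09 (adjusted p 0.044). Dnajc15 lay at 11.72 to 12.16 in controls (median 11.81) and at 11.49, 11.73 and 11.20 in stage II, so that stage II replicate 2 lay within the controls. Dnajc28 lay at 7.21 to 7.52 in controls (median 7.33) and at 6.94, 7.22 and 7.01 in stage II, with the same array within the controls. Dnajc15 lost its call when any 1 array was dropped among control replicates 3, 5 and 6, stage I replicate 2, and stage II replicates 1 and 3 (adjusted p 0.051 to 0.22). Dnajc28 lost it when any 1 was dropped among control replicates 1, 2, 3, 4 and 6, stage I replicate 3, and stage II replicates 1 and 3 (0.054 to 0.17).

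Against stage I, stage II was lower in Dnajb14 (-0.45 ± 0.13, limma adjusted p 0.039), Dnajc15 (-0.55 ± 0.14, 0.025) and Dnajc8 (-0.28 ± 0.08, 0.036). These 3 calls were lost in a fit of the 2 stages alone, at adjusted p 0.14, 0.071 and 0.13. Each was also lost without any single stage I array, and without stage II replicate 1 or 3, at adjusted p from 0.05 to 0.13. The calls of Dnajb14 and Dnajc8 were lost without control replicate 3 or 5 besides (0.052 to 0.055), and that of Dnajb14 without control replicate 6 (0.052). By their brightest probe sets, the remaining uncalled J-domain genes lay between -0.21 and 0.19 in stage II. A dimmer probe set differed by -0.31 in Dnajb6 (0.10 in the brightest) and by 0.21 in Dnaja2 (0.05 in the brightest). Some J-domain genes spread widely within a group. The axonemal Dnajb13 gave 8.73, 8.44 and 7.99 in stage I, and Dnaja4 had a control SD of 0.51. The Dnaja4 stage II arrays lay within the controls, and its stage I replicate 1 (8.40) lay just below them.

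**Figure D3:**
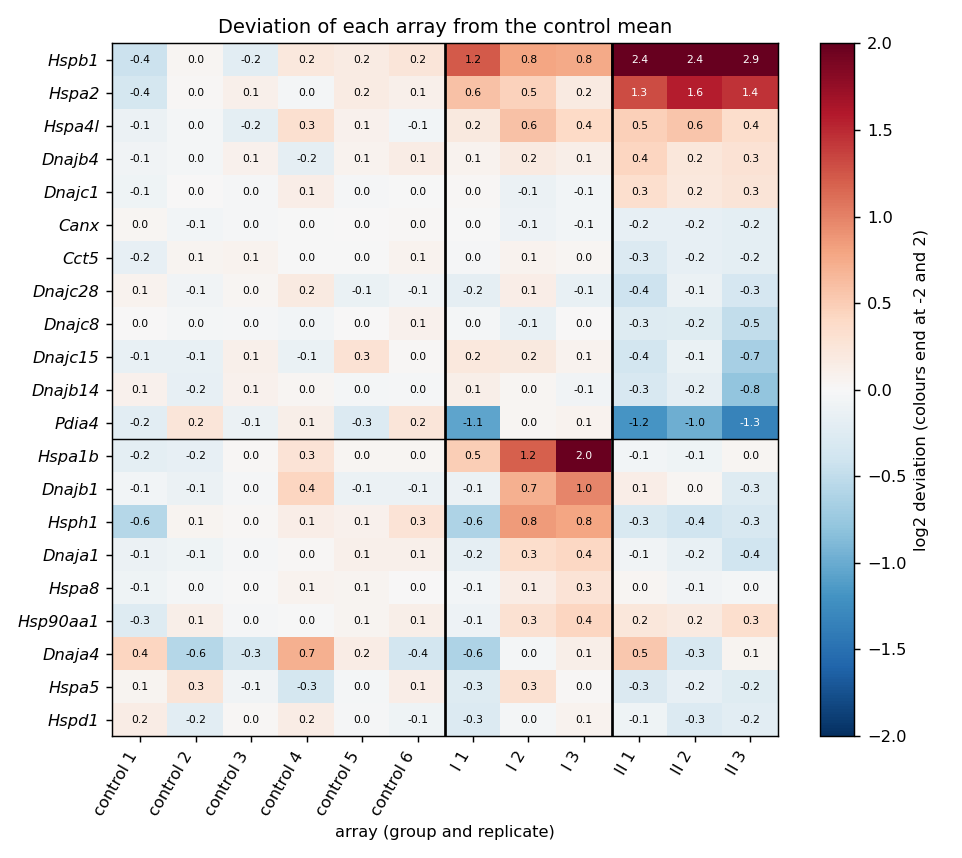
Deviation of each array from the mean of the 6 controls, on the log2 scale, for the 12 members called in stage II against control (upper block) and 9 others (lower block). The upper block was chosen by its stage II calls, so its shift there is no separate result. For Dnajc15 and Dnajc28, stage II replicate 2 lay within the controls. In the lower block Hspa1b, Dnajb1, Hsph1, Dnaja1 and Hspa8 are highest in stage I replicates 2 and 3.

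Of the ER chaperones, Pdia4 (ERp72), a disulfide isomerase that works with BiP, fell furthest of all members. Controls lay at 11.36 to 11.87 (median 11.62), the stage I arrays at 10.57, 11.66 and 11.70, and the stage II arrays at 10.45, 10.65 and 10.29. Stage II lay below every control, and stage I replicate 1 lay at the stage II level while replicates 2 and 3 lay among the controls. Stage II differed from control by -1.16 ± 0.22, a 2.24-fold lower level (limma adjusted p 0.0033), and this call held under every alternative that was run. Stage I differed from control by -0.32 ± 0.22 (adjusted p 0.93), and by 0.05 without its replicate 1. Stage II lay below stage I by 0.85 ± 0.26 (limma adjusted p 0.049), a call that was lost in 17 of 22 alternatives, among them those without any single control or stage II array and without stage I replicate 2 or 3 (adjusted p 0.052 to 0.18).

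The rest of the ER set did not share the fall in size. Pdia3 (ERp57), the partner of the lectins, differed by -0.07 ± 0.05, Pdia6 by 0.12 ± 0.11, Pdia5 by -0.01 and Pdia2, known from pancreas, by 0.51 ± 0.21, none of them called in limma. Pdia2 gave 5.07, 5.18 and 6.23 in stage II against 4.82 to 5.16 in controls, with stage II replicate 3 far above the other arrays. Canx (calnexin), the membrane-bound lectin, lay at 12.33 to 12.42 in controls (median 12.38), at 12.38, 12.28 and 12.32 in stage I and at 12.22, 12.21 and 12.19 in stage II. Its difference of -0.17 ± 0.05 was called (limma adjusted p 0.021) and amounts to 1.13-fold, with all stage II arrays below all others. The Canx call was lost without stage II replicate 1 or 3 (adjusted p 0.054 and 0.076). Calr (calreticulin), its soluble relative, differed by -0.11 ± 0.06 (limma adjusted p 0.21). Of the 6 genes whose promoters are printed above for the ER stress element, Canx alone was called, where 21.0% of all genes were called. The other 5 lay between -0.24 and 0.12. Pdia4, without an exact match to the element in its window, was the ER member with the largest difference. Near matches were not searched. The printed Pdia4 stretch holds AGTGG and ATTGG with 9 bases between them, 1 letter from the element as read on the other strand.

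The 8 CCT chaperonin genes measured shifted little. In stage II 7 of 8 lay below control, as did 42 of all 71 members, and the group median was -0.12. Of the 8, 1 was called lower, where 11.2% of all genes were called lower. Cct5 lay at 11.69 to 11.93 in controls (median 11.88), at 11.83, 11.93 and 11.90 in stage I and at 11.59, 11.70 and 11.67 in stage II. Its difference was -0.21 ± 0.06, or 1.16-fold (limma adjusted p 0.035), and control replicate 1 lay within the stage II range. Cct5 lost its call when any 1 array was dropped among stage II replicates 1 and 3 and control replicates 2, 3, 5 and 6 (adjusted p 0.058 to 0.13). Cct2 differed by -0.14 ± 0.05 (limma adjusted p 0.065) and Cct3 by -0.17 ± 0.07 (0.092). Cct6b, a form known from testis, differed by 0.01. The mitochondrial chaperonin pair, Hspd1 (HSP60) and its lid Hspe1 (HSP10), differed by -0.19 ± 0.10 and -0.15 ± 0.11 in stage II, and neither was called (limma adjusted p 0.18 and 0.40).

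Partner genes that the name rule leaves out were listed by role. Of 20 measured cytosolic co-chaperones and heat shock targets, 3 rose and 1 fell in stage II against control (20.0% called, against 21.0% of all genes), and their median difference was -0.03, against -0.01 over all genes. The share of this list thus lay near the background. Bag2, which releases clients from HSP70 and restrains the ubiquitin ligase Stub1, lay at 8.08 to 8.23 in controls (median 8.17), at 8.58, 8.27 and 8.25 in stage I and at 9.54, 9.67 and 10.37 in stage II. It rose by 1.69 ± 0.15, or 3.23-fold (limma adjusted p 9e-06). Cryab, a small heat shock protein under another name, lay at 6.86 to 7.38 in controls, at 7.44, 7.47 and 7.36 in stage I and at 8.15, 8.07 and 8.03 in stage II, with a difference of 0.92 ± 0.12 (limma adjusted p 0.0002). Both genes, like Hspb1 and Hspa2, had every stage II array above all others, and both calls held in every alternative fit.

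A pair of HSP90 partners known for their place in steroid receptor complexes moved in opposite directions. Fkbp4 (FKBP52), known to assist the progesterone receptor, lay at 9.71 to 10.26 in controls (median 10.20), at 10.25, 10.37 and 10.49 in stage I and at 9.72, 9.71 and 9.30 in stage II. It fell by 0.54 ± 0.13 on the log2 scale against control (limma adjusted p 0.011) and lay 0.79 below stage I (adjusted p 0.0063), with the lowest control inside the stage II range. Fkbp5 (FKBP51), a target gene of steroid receptors, lay at 12.13 to 12.60 in controls (median 12.32), at 12.10, 12.21 and 12.31 in stage I and at 12.82, 12.62 and 12.74 in stage II. It rose by 0.40 ± 0.10 (limma adjusted p 0.014), and stage II lay above all other arrays. Against control, the Fkbp4 call was lost without stage II replicate 3 (adjusted p 0.075), and that of Fkbp5 without stage II replicate 1 or 3 (0.063 and 0.059). Both were also lost with the replicate number as a block (0.14 for Fkbp4 and 0.084 for Fkbp5).

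Of 27 measured genes of ER folding and the unfolded protein response, 6 rose and 2 fell in stage II (29.6% called, against 21.0% of all genes, with 9.81% higher and 11.2% lower). The median difference of the list was 0.03, against -0.01 over all genes. Nucb2, a calcium-binding protein of the secretory pathway, rose by 1.82 ± 0.17 (limma adjusted p 2e-05), from 8.62 to 9.04 in controls to 10.51, 10.46 and 11.19, and stage I replicate 1 (9.66) lay above replicates 2 and 3 (9.05 and 9.11). Edem1, which marks misfolded glycoproteins for disposal, rose by 1.00 ± 0.15 (adjusted p 0.00055), from 8.82 to 9.52 in controls to 10.09, 9.86 and 10.49. Both were above all controls in every stage II array, and both calls held in every alternative fit. Smaller rises were called for Fkbp11, a prolyl isomerase of the ER (0.69, but 0.18 and not called when its probe sets were averaged), Ero1a, the oxidase that recharges PDI proteins (0.36), and Edem2 (0.27). The Fkbp11 call was also lost with the replicate number as a block (adjusted p 0.059) and when the 3 arrays of highest Ovgp1 were dropped (0.054). The Ero1a call was lost without stage II replicate 1 (adjusted p 0.10) and without those 3 arrays (0.092), and the Edem2 call in 15 of 22 alternatives, among them those without any single stage I or stage II array (0.051 to 0.14) or any 1 of control replicates 1, 2, 3, 5 and 6 (0.067 to 0.092). Erp44, a thiol-exchange protein that retains Ero1a in the ER, fell by 0.33 ± 0.07 (limma adjusted p 0.0051), from 10.23 to 10.48 in controls to 10.03, 10.17 and 9.97, and kept its call in every alternative fit. Of 11 mitochondrial proteostasis genes (9.09% called, against 21.0% of all genes), Grpel1, which resets Hspa9, was called, at 0.29 ± 0.08 (limma adjusted p 0.027), and lost without control replicate 2 or 5 or stage II replicate 3 (0.05 to 0.11), and under the replicate block (0.093). In stage I against control 0 of these 58 listed genes were called with limma, at a lowest adjusted p of 0.77.

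**Figure D4:**
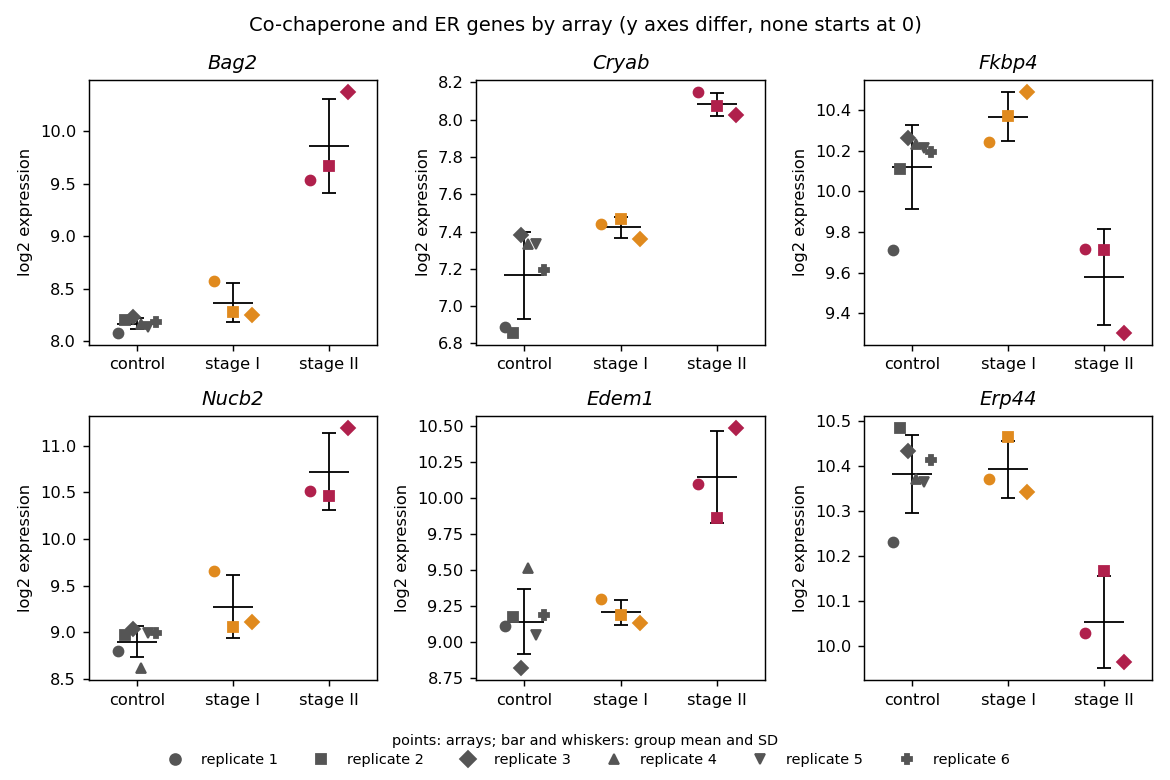
Log2 expression of 6 partner genes in every array, with group mean and SD, in 6 control, 3 stage I and 3 stage II samples (y axes differ and do not start at 0). Bag2, Cryab, Nucb2 and Edem1 are highest in all 3 stage II arrays, Erp44 is lowest there, and Fkbp4 is low there with 1 control.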

How the data were processed

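Per the labels' protocols, Trizol and column kits gave ovarian total RNA, and each biotin-labelled sample was read on 1 array. The authors deposited log2 values, 1 per probe set and array. The log2 scale was read from the values, which run from 2.69 to 14.4, while the sources used here name neither the summary method nor the normalization. Array medians lay between 7.09 and 7.15, so a change in total RNA per cell cannot be seen. Detection calls were not used here, and no filter on low values was applied, so all 71 members entered the fit and dim probe sets have no measured background. The number of arrays limits the precision.

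The table used here holds 16376 probe sets, part of the array. The platform annotation gave 1 symbol to 14674 of them, several to 427 and none to 1275, and the last 2 kinds were left out. Each of 10949 genes was read from its brightest probe set, by the mean of the 12 arrays. A mean per group (control, stage I, stage II, from the labels) was fitted with lmFit and eBayes of limma 3.58.1 under R 4.3.3, with 9 residual and 3.13 prior degrees of freedom, and p-values were adjusted over all genes by Benjamini-Hochberg. Each p-value sets a difference of group means against the spread between these samples within groups, moderated across genes. The fit was tested on simulated data with known changes. Promoters came from the RefSeq table of GRCm38.p6.

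The members, the gene lists and the rule for named genes were chosen with earlier results of these data known. The rule took every called member, a preset group of well-known chaperones, and up to 6 called genes of each partner list by absolute change. Alternatives were quantile normalization, centred medians, removal of the dimmest 25 percent of genes, averaged probe sets, fits of the compared groups only, array weights, a robust variance prior with a trend, a block for the replicate number, removal of control replicates 1 and 4 together or of any single array, and at least 1.5-fold. The removal of the 3 arrays of highest Ovgp1 was added with the data in view.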

Additional observations from a re-analysis of the deposited data

Results flagged for a closer look

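In 5 of the 27 named members 1 control array stood apart from the other 5 by a gap test, which chance meets in about 1 in 20 groups. Control replicate 1 was the lowest in Hsph1 (10.12), Hsp90aa1 (12.29) and Cct5 (11.69). Control replicate 4 was the highest in Dnajb1 (10.56), and control replicate 6 in Dnajc8 (10.05).

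The difference from control was not the same in both stages for 8 members (11.3%, against 12.5% of all genes), by the limma test of stage II against stage I. The stage II difference minus the stage I difference was 1.64 for Hspb1, 1.02 for Hspa2 and 0.32 for Dnajc1. It was -1.26 for Hspa1b, -0.85 for Pdia4, -0.55 for Dnajc15, -0.45 for Dnajb14 and -0.28 for Dnajc8. Those of Hspb1 and Hspa2 passed under every alternative that was run, and the others were lost under at least 1, as given with each gene.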

How the results depend on the processing

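Of the members higher in stage II than control (5), 2 met a floor of 1.5-fold. The 7 lower ones became 13 with array weights, 1 under the replicate block and 1 at 1.5-fold, and 2 to 7 with 1 array left out (4 without control replicate 3 or 6, 3 without stage II replicate 1, 2 without stage II replicate 3). In stage I against control the 0 higher members became 1 with quantile normalization and 1 with centred medians (Hspb1 both times), 2 with array weights, and 0 to 1 with 1 array left out. Against stage I, the 3 higher members became 7 with array weights. The 5 lower ones became 0 with compared groups only, 13 with array weights, 1 under the replicate block, 1 without the 3 arrays with the highest Ovgp1, chosen after seeing the data, 2 at 1.5-fold, and 1 to 5 with 1 array left out (1 without stage I replicate 2 or 3 or stage II replicate 1 or 3, 2 without control replicate 3 or 5, 3 without control replicate 6). Same-numbered arrays of different groups correlated from -0.132 to 0.204 in their deviations. Differently numbered arrays were not correlated for comparison, so these values cannot decide whether the numbers pair the arrays. Replicate numbers 4, 5 and 6 occur only among controls. Under a replicate block those arrays add nothing to the contrasts, and fewer residual degrees of freedom remain. Calls lost under the block therefore cannot be read as an effect of pairing. The replicate block ended the stage II calls against control of Canx, Cct5, Dnajb14, Dnajb4, Dnajc15, Dnajc28 and Dnajc8 (adjusted p 0.061 to 0.19). It also ended those of Fkbp4, Fkbp5, Fkbp11 and Grpel1 (0.059 to 0.14). Averaging probe sets ended the call of Canx (adjusted p 0.056), and so did leaving out the Ovgp1 arrays (0.11), which also ended that of Cct5 (0.099). Fitting the compared groups only ended those of Cct5 (0.056) and Dnajc15 (0.063). Uncalled differences of stage I from control changed sign without stage I replicate 1 in Calr (0.047, range with 1 array left out -0.078 to 0.047), Hspd1 (0.019, range -0.16 to 0.019) and Pdia4 (0.053, range -0.51 to 0.053). That of Hspa5 changed sign without stage I replicate 2 (-0.12, range -0.12 to 0.16) and without the Ovgp1 arrays (-0.12), and Hsp90aa1 between stages without stage I replicate 1 (-0.12, range -0.12 to 0.14). Over all genes, 1074 were higher and 1228 lower in stage II than control, 986 and 1634 after quantile normalization, and 688 and 402 under the replicate block. The causes were not tested. No background was measured, so small differences of dim probe sets are the least certain.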

Other observations

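Dnaja4, a J-domain protein known from cholesterol metabolism and chosen here after its values were seen, varied within groups more than between them. It lay at 9.45, 8.45, 8.67, 9.72, 9.17 and 8.64 in the 6 controls, at 8.40, 8.98 and 9.14 in stage I and at 9.55, 8.70 and 9.07 in stage II. Its second probe set was likewise highest in control replicates 4 and 1 and stage II replicate 1, at 8.73, 8.22 and 8.37. The mean level of 4 measured luteal markers, genes of the corpus luteum, was 11.86, 10.83, 10.38, 12.06, 10.97 and 10.57 in the same controls, 9.59, 10.76 and 11.63 in stage I, and 11.66, 11.08 and 10.32 in stage II. This mean pools opposite differences in stage II, where Parm1 was higher than in controls by 3.05 (limma adjusted p 3.4e-06) and Akr1c18 differed by -2.57 (adjusted p 0.11), Ptgfr by -0.57 and Scarb1 by -0.28, none of these 3 called, so its stage II values cannot be read as an amount of luteal tissue. Control replicates 1 and 4 were highest among controls in both measures, and stage I replicate 1 was the lowest of all arrays in both. The part of luteal tissue in the Dnaja4 level was not tested.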
